A study of Homo sapiens with 20 samples.

Results

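STAG1 peaks were set against SMC1A peaks in M14 melanoma cells upon STAG2 knockdown (STAG2-KD). The members were all peaks on chromosomes 1 to 22 and X of the 4 STAG2-KD lists of these antibodies, 431926 in number of 1599606 peaks in the 16 lists of the series. STAG1 had 85527 peaks in set 1 and 104628 in set 2, and SMC1A had 91489 and 150282. Lists were compared only within a set, where a peak was called shared when it overlapped a peak of the other antibody by at least 1 bp and alone when it did not. The question was how much of the SMC1A that remains on chromatin after STAG2 KD carries STAG1, and what kind of site each protein occupies without the other.

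M14 is an established human melanoma line, here carrying a doxycycline-inducible shRNA against STAG2 in all cells, WT included. STAG2-KD cells received doxycycline, for 5 d in set 1, where the labels give the time, and WT cells did not. One shRNA in a single line was used, and markers of the cell type cannot be read from cohesin ChIP-seq. Each antibody has a library in either set. Chromatin was prepared by another protocol in each set, and fragments were sized with beads for set 1 and on a gel for set 2.

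Cohesin is a ring-shaped complex that extrudes chromatin loops and is halted by CTCF, the sequence-specific factor that marks loop anchors and domain boundaries. SMC1A is a core subunit of every mitotic cohesin ring. Each ring also holds 1 of the paralogues STAG1 and STAG2, so that SMC1A without detected STAG1 may be cohesin with STAG2 or cohesin whose STAG signal lay under the peak caller's threshold.

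As a check of the labels, the STAG2 lists were shorter upon KD, with 58418 peaks against 79048 in WT cells for set 1 and 106135 against 118984 for set 2, so that many STAG2 peaks remained. The read level to which MACS2 had scaled each library was computed from its p-values and folds. In STAG2-KD it was 40.2 M reads for STAG1 and 25.3 M for SMC1A in set 1, and 65.1 M and 47.5 M in set 2. In background of the lowest level the weakest listed peak had a fold enrichment over background of 3.23 for STAG1 and 3.77 for SMC1A in set 1, against 2.17 and 2.201 in set 2, so that set 2 listed weaker sites.

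The sequences below show sites among the strongest of the 3 kinds found in both sets, 121 bases around the set 1 summit, plus strand, hg19 (GRCh37). They come from the 5 sites per class with the lowest sum of peak ranks over both sets. Within these they were chosen to show a motif or its absence, not by rank alone. Shared sites at CFAP100 and B4GALT5, without a CTCF core match, and a lone SMC1A site at PAX8, with one, were passed over. The sequences therefore do not give the frequency of a motif in a class. CHST8 and TMEM45B stand for shared sites, GAS8, DOCK6, ATP11A and CDH20 for SMC1A without STAG1, and ABCF2 and PKDCC for STAG1 without SMC1A. Sites outside genes are named after a neighbouring gene, and at TMEM45B, CDH20 and PKDCC another annotated transcript start lay nearer. Capitals mark the CTCF core motif (the centre of the CTCF recognition sequence) at CHST8, TMEM45B and CDH20, and CACCTG on either strand at GAS8, DOCK6 and ATP11A. ABCF2 and PKDCC have no capitals because neither window held a match to the CTCF core.
CHST8, chr19:34269052-34269172: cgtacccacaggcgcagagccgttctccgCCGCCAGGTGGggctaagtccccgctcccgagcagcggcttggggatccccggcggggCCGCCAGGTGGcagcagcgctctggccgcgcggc
TMEM45B, chr11:129620856-129620976: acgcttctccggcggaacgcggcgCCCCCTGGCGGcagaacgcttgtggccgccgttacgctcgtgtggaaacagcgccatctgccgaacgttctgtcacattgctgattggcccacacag
GAS8, chr16:90098828-90098948: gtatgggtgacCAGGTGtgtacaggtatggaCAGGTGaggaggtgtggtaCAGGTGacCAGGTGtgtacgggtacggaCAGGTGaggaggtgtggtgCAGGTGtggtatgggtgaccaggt
DOCK6, chr19:11320620-11320740: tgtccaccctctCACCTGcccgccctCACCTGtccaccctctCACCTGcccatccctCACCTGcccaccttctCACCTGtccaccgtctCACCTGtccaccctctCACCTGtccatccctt
ATP11A, chr13:113369655-113369775: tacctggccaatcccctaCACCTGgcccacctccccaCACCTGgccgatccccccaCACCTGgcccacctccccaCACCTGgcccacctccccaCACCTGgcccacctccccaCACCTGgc
CDH20, chr18:58756047-58756167: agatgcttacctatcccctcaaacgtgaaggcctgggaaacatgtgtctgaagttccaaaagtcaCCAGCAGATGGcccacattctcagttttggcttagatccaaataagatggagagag
ABCF2, chr7:150924406-150924526: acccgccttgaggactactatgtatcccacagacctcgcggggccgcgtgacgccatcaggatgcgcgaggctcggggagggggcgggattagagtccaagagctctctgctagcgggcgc
PKDCC, chr2:42033579-42033699: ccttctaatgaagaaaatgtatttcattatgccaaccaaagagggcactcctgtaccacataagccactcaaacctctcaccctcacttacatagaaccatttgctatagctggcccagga

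Most SMC1A peaks carried STAG1 upon STAG2 KD. STAG1 was found at 64859 of 91489 SMC1A peaks in set 1 (70.9%) and at 86032 of 150282 in set 2 (57.2%), a mean of 64.1% ± 9.65 (SD, n = 2 sets). In WT cells the share was 62.4% in set 1 and 56.1% in set 2, a mean of 59.3% ± 4.40 (SD, n = 2). The share was thus higher in STAG2-KD by 8.51 percentage points in set 1 and by 1.10 in set 2, a mean of 4.81 ± 5.25 (SD, n = 2). This difference was smaller than the spread between sets, with a two-sided exact permutation p of 0.667, where 0.333 is the smallest p that 2 libraries against 2 can give. With lists cut to equal numbers of peaks the difference was 2.51 in set 1 and 0.673 in set 2, and at a q-value of 1e-05 in all lists it was 4.98 and -2.92, so that set 2 turned in sign. The WT and STAG2-KD values overlapped across the sets, whose list thresholds differ, since WT in set 1 lay above STAG2-KD in set 2.

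In the other direction, SMC1A was found at 65768 of 85527 STAG1 peaks in set 1 (76.9%) and at 89799 of 104628 in set 2 (85.8%), a mean of 81.4% ± 6.31 (SD, n = 2). The WT shares were 81.9% and 85.7%. Here STAG2-KD was lower than WT by 5.04 percentage points in set 1 and higher by 0.148 in set 2, and the two-sided exact permutation p was 1. STAG1 peaks thus had SMC1A more often than SMC1A peaks had STAG1 in both sets and both conditions, while the SMC1A lists were the longer ones in each. With the STAG2-KD lists cut to equal numbers of peaks the gap was much smaller. STAG1 was then at 73.9% of the SMC1A peaks in set 1 and 74.0% in set 2, and SMC1A at 75.4% and 79.3% of the STAG1 peaks.

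**Figure D1:**
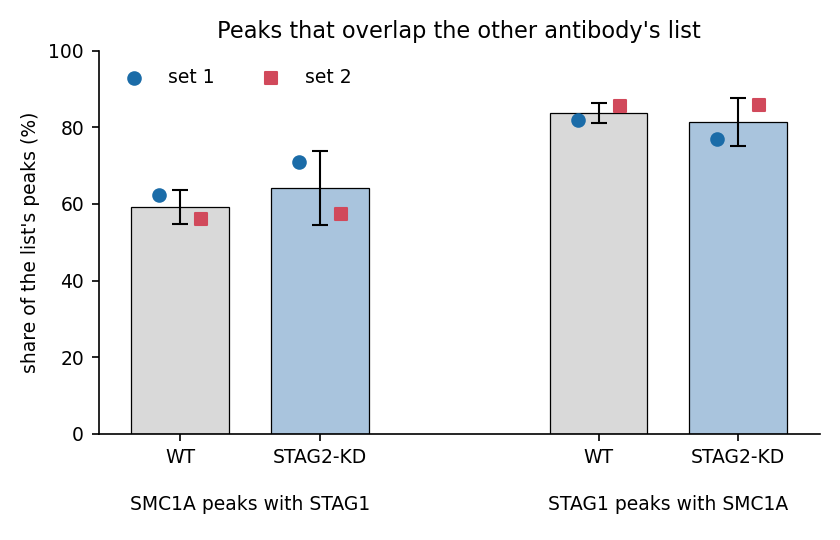
Share of peaks (%) that overlap the other antibody's list, for SMC1A peaks with STAG1 (left pair) and STAG1 peaks with SMC1A (right pair) in WT and STAG2-KD. Bars give the mean of the 2 sets, error bars the SD (n = 2), blue circles set 1 and red squares set 2; the largest gap between conditions is that of SMC1A peaks in set 1, 62.4% in WT and 70.9% in STAG2-KD.

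Where both antibodies had a peak, the pair mostly lay at a single place. Of the shared SMC1A peaks, 95.4% in set 1 and 93.1% in set 2 overlapped exactly 1 STAG1 peak. The summits were a median of 29 bp apart in set 1 and 61 bp in set 2. Median fold enrichment over background at the shared peaks was 9.89 for SMC1A and 14.5 for STAG1 in set 1, and 6.50 and 6.04 in set 2. Across shared peaks the folds of both antibodies had a Spearman correlation of 0.76 in set 1 (n = 64859 peaks) and 0.77 in set 2 (n = 86032). These peaks share their input library and local background, and peaks are not independent replicates.

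The share of SMC1A with STAG1 rose with the strength of the SMC1A peak. In the weakest decile of the SMC1A list, ranked by p-value, 28.3% of the peaks carried STAG1 in set 1 and 15.1% in set 2. It was 69.6% and 43.1% in the fifth decile and 96.5% and 83.9% in the seventh. In the strongest decile all 9149 peaks of set 1 and 15027 of 15028 peaks of set 2 carried it. Within the stronger 50% of the list, 1761 of 45745 SMC1A peaks (3.85%) lacked STAG1 in set 1 and 8557 of 75141 (11.4%) in set 2.

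No lone SMC1A peak was among the 10000 strongest in either set. The strongest SMC1A peak without STAG1 held rank 12530 in set 1, with a fold of 25.5, and rank 10241 in set 2, with a fold of 23.4. STAG1 peaks followed the same order, from 50.2% with SMC1A in the weakest decile to 8551 of 8553 peaks in the strongest in set 1, and from 65.3% to 10462 of 10463 peaks in set 2. Lone STAG1 peaks reached higher ranks, with the strongest at rank 2903 in set 1 and 2437 in set 2. SMC1A had the lower read level in each set, as given above, and the part of depth in these shares was not tested.

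**Figure D2:**
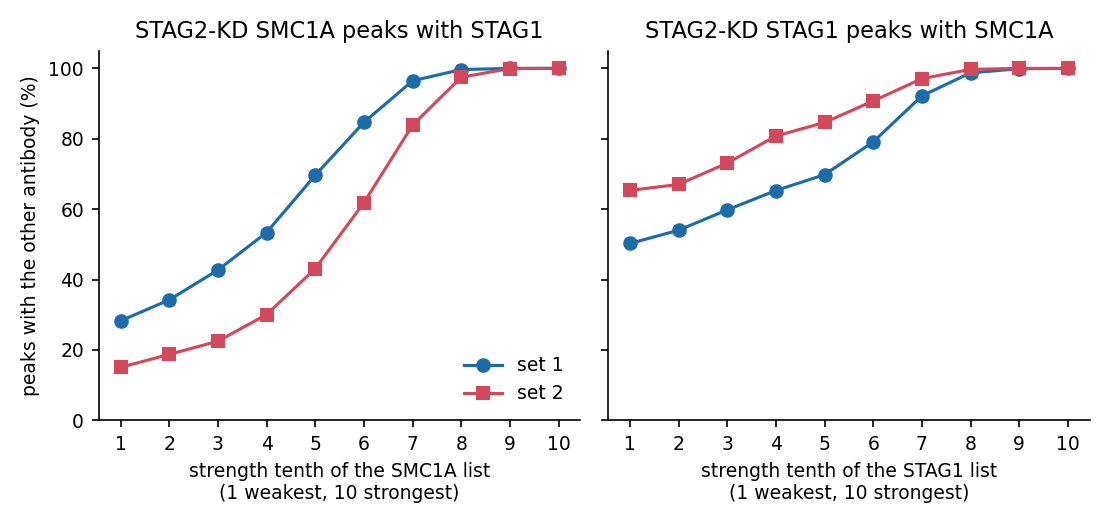
Share of STAG2-KD peaks (%) that overlap the other antibody, by strength decile of the asked list (1 weakest, 10 strongest, by p-value), for SMC1A (left) and STAG1 (right). Blue circles are set 1 and red squares set 2; all 4 lines end at or near 100% in the last decile, and the SMC1A lines start lower, at 28.3% and 15.1%, than the STAG1 lines at 50.2% and 65.3%.

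SMC1A peaks without STAG1 were accordingly weak and narrow. Their median strength percentile within the list (0 weakest, 100 strongest) was 21.4 in set 1 and 26.0 in set 2, against 64.4 and 71.2 for SMC1A with STAG1. The difference of medians was 44.1 ± 1.52 percentile points (SD, n = 2). Their median fold was 4.55 and 3.03, and their median width was 180 bp and 232 bp, against 452 bp and 776 bp for shared peaks. Many lay close to STAG1 all the same, with 36.7% of the lone SMC1A peaks in set 1 and 34.4% in set 2 within 1 kb of a STAG1 peak, and 72.5% and 79.2% within 10 kb. Lone STAG1 peaks were as weak, with median percentiles of 24.7 and 21.1, but stood farther off, with 18.1% and 19.6% within 1 kb of an SMC1A peak.

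CTCF separated the 2 kinds of SMC1A peak. A CTCF peak of the same set and condition overlapped 81.6% of the SMC1A peaks with STAG1 in set 1 and 79.8% in set 2, but 21.2% and 19.6% of the lone ones. The difference was 60.3 ± 0.117 percentage points (SD, n = 2) and was seen at each strength that could be compared. In the fifth decile of the SMC1A list, for example, 66.0% of the peaks with STAG1 and 32.2% of those without had CTCF in set 1, and 58.7% and 23.4% in set 2. The mean difference within the strength deciles was 38.3 percentage points.

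Read the other way, most SMC1A peaks with CTCF had STAG1, and most without CTCF did not. Away from promoters, 93.1% of the SMC1A peaks with CTCF carried STAG1 in set 1 and 85.3% in set 2, against 35.3% and 24.4% of those without CTCF. At promoters (midpoint within 1 kb of an annotated transcript start) the values were 82.8% and 82.0% with CTCF and 37.8% and 28.1% without. SMC1A peaks with neither CTCF nor a promoter were 22.8% of the list in set 1 and 36.9% in set 2, and had median strength percentiles of 24.3 and 29.6.

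STAG1 peaks without SMC1A kept CTCF more often than SMC1A peaks without STAG1 did. CTCF overlapped 53.8% of the lone STAG1 peaks in set 1 and 56.5% in set 2, against 80.6% and 77.9% of the STAG1 peaks with SMC1A. This difference, 24.2 ± 3.79 percentage points (SD, n = 2), was smaller among peaks of like strength. In the third decile of the STAG1 list the CTCF share was 46.2% with SMC1A and 46.9% without in set 1, and 50.7% and 56.0% in set 2. Over the strength deciles that held at least 20 peaks of each kind the mean difference was 2.38 percentage points in set 1 and -1.39 in set 2, which is to say that the sets differed in sign.

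STAG1 sites without SMC1A lay away from genes' starts. Promoters made up 16.2% of them in set 1 and 10.4% in set 2, against 27.7% and 25.3% of STAG1 sites with SMC1A, a difference of 13.2 ± 2.38 percentage points (SD, n = 2). Their median distance to a transcript start was 9.39 kb and 12.3 kb, against 5.21 kb and 5.94 kb. Intergenic sites were 32.1% and 34.8% of the lone STAG1 peaks and introns 47.4% and 50.6%. The promoter gap held in the 7 weaker deciles of the list in both sets, for example 47.9% against 21.7% in the weakest decile of set 1, and was turned in the eighth, which had 109 and 31 lone peaks. Averaged over all 10 deciles the sign turned, to -0.998 in set 1 and -4.13 in set 2, through deciles with 1 to 9 lone peaks, and over deciles with at least 20 of each kind it was 18.5 and 15.6 percentage points.

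For SMC1A the place depended on the set. Lone SMC1A peaks were at promoters in 38.2% of cases in set 1 and 20.9% in set 2, and shared ones in 26.7% and 23.3%, so the difference (shared minus lone) was -11.4 percentage points in set 1 and 2.48 in set 2. The 2 sets thus gave opposite signs at these thresholds. Set 2 turned to -1.28 with a promoter window of 2.5 kb, where set 1 gave -12.8, and to -6.11 at a q-value of 1e-05 in all lists, where set 1 gave -16.6. Within deciles of equal strength the lone peaks were more often at promoters in each of the 8 deciles with at least 20 peaks of both kinds, in both sets. In the weakest decile this was 35.8% against 31.2% in set 1 and 18.6% against 17.3% in set 2. STAG1 was found at 63.1% of the promoter SMC1A peaks and 78.2% of the intergenic ones in set 1, and at 59.97% and 59.5% in set 2.

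**Figure D3:**
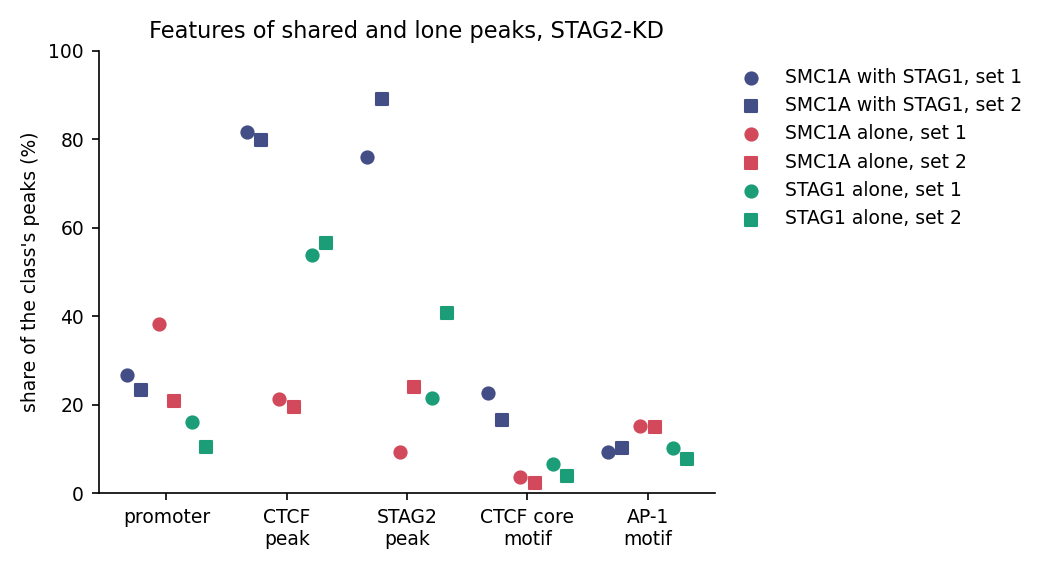
Share of the peaks (%) in each class that lie at a promoter, overlap a CTCF or a STAG2 peak of the same set, or hold a CTCF core or an AP-1 motif within 100 bp of the summit, in STAG2-KD. Circles are set 1 and squares set 2, for SMC1A with STAG1 (dark blue), SMC1A alone (red) and STAG1 alone (green); the CTCF share is 81.6% and 79.8% in the first class and 21.2% and 19.6% in the second.

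The remaining STAG2 lay mostly where STAG1 also was. A STAG2 peak overlapped 76.1% of the SMC1A peaks with STAG1 in set 1 and 89.2% in set 2, but only 9.28% and 23.9% of the lone ones, a difference of 66.0 ± 1.11 percentage points (SD, n = 2). SMC1A peaks therefore fell mainly into those with both STAG proteins (53.9% in set 1 and 51.0% in set 2) and those with neither (26.4% and 32.5%). SMC1A with STAG1 as the only STAG made up 16.9% in set 1 and 6.20% in set 2, against 2.803% and 3.82% in WT. SMC1A with STAG2 as the only STAG made up 2.6998% and 10.2% in STAG2-KD, against 15.4% and 14.7% in WT. Both changes had the same direction in both sets, and both were larger in set 1. In that set the STAG2 list was shortened more, and the STAG1 list was also lengthened more. STAG1 had 85527 peaks upon KD and 63479 without it in set 1, and 104628 and 98437 in set 2. The part of each list in these changes was not tested.

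SMC1A was strongest with both STAG proteins and weakest with neither in both sets, while the 2 states with a single STAG had no common order. Median SMC1A strength percentiles were 72.6 in set 1 and 74.3 in set 2 with both STAG proteins, 37.5 and 39.2 with STAG1 only, 32.0 and 39.4 with STAG2 only, and 20.5 and 22.7 with neither. CTCF was at 57.6% and 54.3% of the peaks with STAG1 only and at 30.1% and 27.1% of those with STAG2 only. Promoters made up 70.3% of the SMC1A peaks with STAG2 only in set 1 and 25.3% in set 2, so that this state was mainly a promoter state in set 1 and not in set 2.

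**Figure D4:**
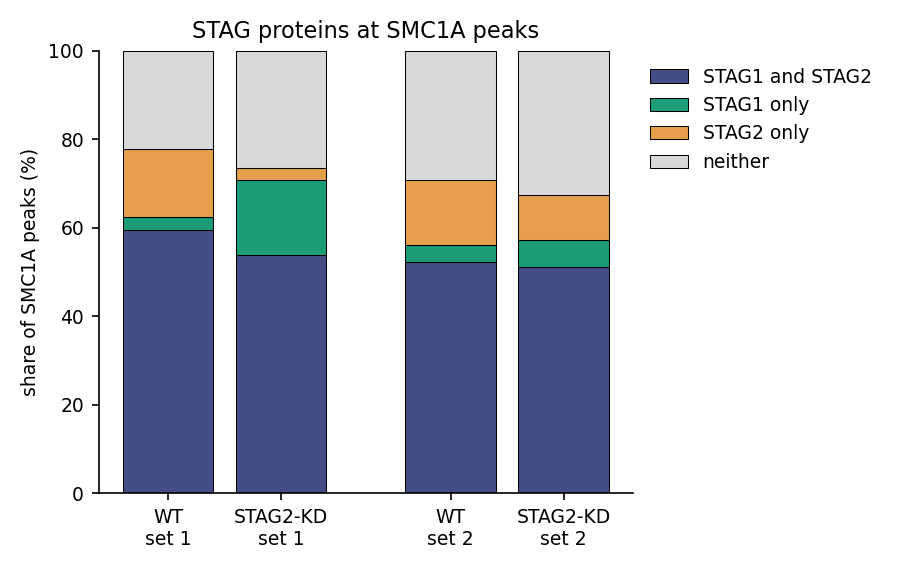
Share of SMC1A peaks (%) with STAG1 and STAG2, STAG1 only, STAG2 only or neither, by condition and set (1 list per bar). In STAG2-KD the green part (STAG1 only) is 16.9% in set 1 and 6.20% in set 2, above the 2.803% and 3.82% of WT, and the orange part (STAG2 only) is smaller than in WT.

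Lone SMC1A sites were also less often sites of WT cells. A WT SMC1A peak of the same set overlapped 39.4% of them in set 1 and 42.9% in set 2, against 84.7% and 90.8% of the SMC1A sites with STAG1. WT STAG1 was at 78.7% and 88.1% of the shared sites and at 5.88% and 12.1% of the lone SMC1A sites. WT STAG2 was at 26.2% and 26.8% of the lone SMC1A sites, more than the 9.28% and 23.9% with STAG2 in STAG2-KD. Lone STAG1 sites had a WT STAG1 peak in 36.9% and 46.8% of cases and a WT SMC1A peak in 16.5% and 26.1%. A gap was also seen from WT to STAG2-KD. Of the WT SMC1A peaks without WT STAG1, 58.3% in set 1 and 47.9% in set 2 had a STAG2-KD SMC1A peak. Of those with WT STAG1, 94.6% and 94.7% did. Lone peaks were weaker, and these shares were not compared within strength.

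DNA sequence at the summit differed between the classes, and motif shares were not compared within strength. The CTCF core motif lay within 100 bp of the summit in 22.5% of the SMC1A peaks with STAG1 in set 1 and 16.7% in set 2, and in 3.56% and 2.26% of the lone ones. It lay in 6.70% and 3.86% of the lone STAG1 peaks. Windows of the same length 5 kb away held it in 0.533% to 0.730% of cases over these classes. The short core misses many CTCF sites and serves for comparison only, as at CFAP100 and B4GALT5, where the windows around strong CTCF peaks held no match.

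The AP-1 motif TGANTCA, recognised by FOS and JUN factors at many enhancers, showed the opposite order. It lay in 15.3% of the lone SMC1A peaks in set 1 and 14.99% in set 2, in 9.20% and 10.1% of the shared ones, and in 5.92% to 6.20% of the windows 5 kb away from these peaks. Among the 9890 SMC1A sites that lacked STAG1 in both sets it lay in 20.7%. The order depended on CTCF. Among SMC1A peaks with neither CTCF nor a promoter, AP-1 lay in 30.3% of those with STAG1 and 22.7% of those without in set 1, and in 24.3% and 17.8% in set 2. Away from promoters but with CTCF, the lone peaks had it more often, 10.1% against 6.95% in set 1 and 10.8% against 7.99% in set 2. At promoters with CTCF the sets differed in sign, with 4.18% of the lone peaks against 4.27% in set 1 and 5.21% against 4.87% in set 2. The order of all sites was thus seen at the CTCF sites away from promoters and turned at those without CTCF.

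GC content and CpG content differed less. Mean GC within 100 bp of the summit was 51.3% for shared and 53.8% for lone SMC1A peaks in set 1, and 49.6% and 48.5% in set 2. Lone STAG1 peaks were the poorest, with 46.6% and 43.6%, and had an observed-to-expected CpG ratio of 0.247 in set 1 and 0.204 in set 2 against 0.359 and 0.327 for STAG1 with SMC1A.

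The class of a site was often not the same in both sets. A set 2 SMC1A peak was found at 89178 of the 91489 set 1 SMC1A peaks (97.5%). Of these, 63147 (70.8%) carried STAG1 in both sets and 9890 (11.1%) in neither. Sites with STAG1 in set 1 kept it in set 2 in 99.3% of cases, whereas 61.4% of the sites without STAG1 in set 1 (15726 sites) had it in set 2. The set 2 peaks are wider, and judged on the set 1 interval itself the last number was 11685. At these 15726 sites the set 2 STAG1 peak had a median fold of 3.36, against 10.9 at sites with STAG1 in both sets. Absence of STAG1 in set 1 therefore often went with a weak STAG1 peak in set 2.

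STAG1 sites behaved likewise. Of the 85527 set 1 STAG1 peaks 82247 (96.2%) had a set 2 STAG1 peak, of which 63902 had SMC1A in both sets and 5714 (6.95%) in neither. Among the STAG1 sites without SMC1A in set 1, 68.6% had SMC1A in set 2.

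The 9890 SMC1A sites without STAG1 in both sets were at promoters in 28.8% of cases, in introns in 44.6% and intergenic in 21.4%. CTCF was absent in both sets at 73.7% of them and STAG2 at 54.4%. WT cells had an SMC1A peak in both sets at 26.8% of them and a WT STAG1 peak in neither set at 77.3%. The 5714 STAG1 sites without SMC1A were at promoters in 8.61% of cases, CTCF was present in both sets at 45.6%, and WT STAG1 was present in both sets at 33.1%. Remaining STAG2 was detected in both sets at 12.5% of these STAG1 sites and at 4.18% of the SMC1A sites.

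The strongest shared sites had all 4 proteins at high fold. The first was the site 4.74 kb outside CHST8, a sulfotransferase gene, at chr19:34268765-34269549. Its STAG2-KD folds were 105.1 and 66.5 for SMC1A in sets 1 and 2, 86.5 and 56.3 for STAG1, and 117 and 84.5 for CTCF, and its STAG2 folds were 73.7 and 45.5. The next sites lay near CFAP100, B4GALT5 and TMEM45B and in SYT8, with SMC1A folds of 89.6 to 100.3 in set 1 and 42.7 to 61.6 in set 2. Among the 100 strongest sites of this class all 100 had CTCF and STAG2 in both sets and in WT SMC1A, 32 were promoters, 61 held the CTCF core and 0 held AP-1.

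The SMC1A sites without STAG1 that are named here, the strongest by rank sum, were of 2 kinds. The first, at chr16:90098197-90099302, lies in an intron of GAS8, which encodes a ciliary protein. SMC1A had folds of 25.5 in set 1 and 23.4 in set 2 there in STAG2-KD, and 37.1 and 24.5 in WT. STAG1 and STAG2 had no peak in any of the 8 lists, and CTCF had 1 peak of fold 3.65, in STAG2-KD set 2. The sites in introns of DOCK6 (chr19:11320110-11321709, SMC1A folds of 14.6 and 14.3) and ATP11A (chr13:113369600-113369872, folds of 16.1 and 10.7) had no peak of any of the other 3 proteins in either condition.

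As the sequences above show, GAS8, DOCK6 and ATP11A share a repeated short unit that holds CACCTG. The 121 bases held 6, 7 and 6 copies of CACCTG on either strand, and 61.4%, 66.7% and 75.4% of their 8-letter words occurred more than once. Such windows, with at least 50% of repeated words within 100 bp of the summit, were rare over all classes. They made up 0.667% of the SMC1A sites without STAG1 in both sets, 0.677% of the windows 5 kb from these and 0.0887% of the shared sites, but 7 of the 100 strongest lone SMC1A sites. This feature was looked for after the sequences had been seen.

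The other kind had CTCF. At chr18:58755912-58756398, 245 kb from CDH20, a cadherin gene, SMC1A had folds of 22.1 and 19.8 and CTCF 47.4 and 35.4, while STAG1 had no peak in any of the 4 lists and STAG2 one of fold 3.59 in STAG2-KD set 2. In WT cells STAG2 had folds of 4.08 and 3.24 there. The site 18.8 kb from PAX8, a developmental transcription factor, at chr2:114055103-114055558, had SMC1A folds of 16.3 and 10.5 and CTCF folds of 30.3 and 23.1, with no STAG1 peak in STAG2-KD and one of fold 2.96 in WT set 2. Among the 100 strongest sites of this class 48 had CTCF in both sets, 15 had STAG2 in both sets, 33 were promoters and 86 had WT SMC1A in both sets. The CTCF core lay at 18 of these 100 sites and AP-1 at 18. Windows of repeated words were found at 7 of the 100, so that many of them were of neither kind.

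Among STAG1 sites without SMC1A the strongest was the promoter of ABCF2, which encodes an ATP-binding cassette protein, at chr7:150924132-150924765. STAG1 had folds of 37.6 and 25.2 there in STAG2-KD and 28.1 and 18.5 in WT. CTCF had 4.11 and 5.65, STAG2 13.0 and 6.58, and SMC1A had no peak in any of its 4 lists. The promoters of CENPQ, a centromere protein (chr6:49430829-49431227), and LDAH, a lipid droplet hydrolase (chr2:21022668-21023110), had STAG1 folds of 15.9 and 14.4 and of 12.3 and 11.1, with no STAG2, CTCF or SMC1A peak in STAG2-KD.

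The intergenic site 241 kb from PKDCC (chr2:42033375-42033974) and an intron site of ADGB (chr6:147096217-147096753) had STAG1 folds of 30.1 and 15.7 and of 27.4 and 14.9. Both had CTCF and STAG2 in STAG2-KD and in WT, at folds of 5.59 to 10.1 for CTCF and 9.91 to 17.9 for STAG2 in STAG2-KD. At PKDCC WT cells also had a weak SMC1A peak, of fold 3.59 in set 1 and 4.93 in set 2. Among the 100 strongest STAG1 sites without SMC1A 98 had WT STAG1 in both sets, 85 had CTCF and 71 STAG2 in both sets, and 10 were promoters.

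SMC1A sites without STAG1 were spread over many genes. Of 20097 protein-coding genes 13936 held an SMC1A site of both sets, 4177 held at least 1 that lacked STAG1 in both sets, and 128 held 5 or more. SEPTIN9, a cytoskeletal GTPase gene, held the most, 15 of its 55 SMC1A sites, with 21 that had STAG1 in both sets. SSH1, a cofilin phosphatase gene, held 14 of 27, which is 51.9% of its sites. FRMD4B (11 of 29), PLA2G6, a phospholipase gene (11 of 24), RAI1 (11 of 55), SMAD3, the TGF-beta signal transducer (11 of 33), and TEAD1, a Hippo pathway transcription factor (11 of 45), followed. ABTB2 (10 of 25), BCAR3 (10 of 35) and FRMD4A (10 of 46) completed the list. These genes are 79.4 to 818 kb long, and the counts are not scaled to length. FRMD4A alone held STAG1 sites without SMC1A in both sets, 3 in number, among the 10.

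Promoters were then asked gene by gene. An SMC1A peak lay at the promoter of 12627 of 20090 protein-coding genes in set 1 and 14526 in set 2, and overlapped STAG1 at 79.3% and 84.6% of them. SMC1A without STAG1 was found at 2613 and 2233 promoters. At 612 and 265 promoters a STAG1 peak but no SMC1A peak had its midpoint in the window. Such a STAG1 peak may still overlap an SMC1A peak whose midpoint lies outside the window. The gene lists below are read against these shares.

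Interferon genes had shares near those of all promoters. Of 38 interferon signalling and target genes 27 had promoter SMC1A in set 1 and 36 in set 2, with STAG1 at 20 (74.1%) and 29 (80.6%). STAG1 joined SMC1A in both sets at 20 of them, among these IRF9, JAK1, IFNAR1, ISG15 and CD274. IFIH1, a sensor of viral RNA, and XAF1 had SMC1A without STAG1 in both sets. IFI44L, IFIT1, IRF3, IRF7 and SAMHD1 had SMC1A alone in set 1 and STAG1 with it in set 2. At IRF7 this STAG1 peak was among the weakest of its list, with a fold of 1.85 and a strength percentile of 2.27.

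The MAPK feedback genes were the most uniform. All 16 had promoter SMC1A in set 1, 14 did in set 2, and STAG1 was present at 100% of both. They include DUSP4 and DUSP6, the ERK phosphatases, and SPRY2 and SPRY4, the receptor signalling inhibitors. The 2 genes missing in set 2 were IER3, in the HLA stretch described next, and PHLDA1, whose start lay under a single SMC1A peak 13.9 kb wide with its midpoint outside the promoter window.

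Melanoma lineage genes were mixed. Of 18 melanocyte genes 16 and 18 had promoter SMC1A, with STAG1 at 12 (75%) and 15 (83.3%), among them MITF, SOX10, PMEL and TYRP1 in both sets. SLC24A5, a melanosome exchanger, and TRPM1 had SMC1A without STAG1 in both. Of 18 genes of the dedifferentiated melanoma state all had promoter SMC1A, with STAG1 at 16 (88.9%) and 17 (94.4%).

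Cohesin's own genes, ribosomal protein genes and histone genes also had shares near those of all promoters. Of 15 cohesin and regulator genes 11 and 15 had promoter SMC1A and 10 (90.9%) and 13 (86.7%) STAG1 with it. SMC1A and SMC3, which encode the core subunits, had no promoter peak in set 1 and SMC1A without STAG1 in set 2. Of 85 ribosomal protein genes 75 and 82 had promoter SMC1A, with STAG1 at 56 (74.7%) and 70 (85.4%), and 6 of them, RPL19 and RPL37 among these, had SMC1A without STAG1 in both sets. In histone cluster 1 the counts were 36 of 45 (80.0%) and 39 of 43 (90.7%).

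For antigen presentation the sets could not be compared gene by gene. Of 16 genes 10 had promoter SMC1A in set 1 and 6 in set 2, with STAG1 at 6 (60%) and 5 (83.3%). TAPBP and PSMB8, among others, had no peak in either set, and HLA-B, TAP1, TAP2 and PSMB9 had one in set 1 only. From 29 to 33 Mb of chromosome 6, where most of these genes lie, set 2 had 11 SMC1A and 10 STAG1 peaks in STAG2-KD against 95 and 119 in set 1, and the WT and CTCF lists of set 2 had as few, 9 to 15. Outside this stretch CALR, a chaperone of the endoplasmic reticulum, had SMC1A without STAG1 in both sets, and CANX, ERAP1, NLRC5 and PDIA3 had STAG1 with it in both.

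At the loci of the study other than the SMC1A gene, the SMC1A peak of highest fold carried STAG1 in both sets, while weaker peaks were of both kinds. The IRF9 promoter had 1 shared peak, at chr14:24630180-24630597 in set 1. Its SMC1A folds were 10.5 in set 1 and 11.9 in set 2, its STAG1 folds were 16.4 and 10.5, and CTCF and STAG2 were present in both sets. A lone SMC1A peak of fold 2.62, in the 14.5th percentile, was listed inside the gene in set 2. CD274, which encodes PD-L1, had shared peaks at its promoter (chr9:5450365-5450775) and 7.92 kb from its start (chr9:5442262-5442911) in both sets. The promoter peak had SMC1A folds of 14.9 and 16.7 and STAG1 folds of 20.2 and 17.1.

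Within 10 kb of ISG15, a ubiquitin-like interferon target, 9 of 11 SMC1A peaks in set 1 and 6 of 10 in set 2 carried STAG1. The lone ones at its promoter had folds of 3.37 and 3.47 in set 1 and 2.58 and 3.30 in set 2. USP18, which removes ISG15 from proteins, had its strongest peak in an intron (chr22:18639932-18640260), with SMC1A folds of 8.48 and 9.08 and STAG1 folds of 29.8 and 23.2. At IRF7, a driver of interferon genes, 3 of 4 SMC1A peaks in set 1 and 3 of 5 in set 2 were alone, with folds of 4.14 to 4.89 and of 2.50 to 3.18. DUSP6 had 15 SMC1A peaks in set 1, of which 10 carried STAG1, and 4 broader ones in set 2, of which 3 did.

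The genes of the proteins themselves differed. The STAG1 promoter had a strong shared peak (chr3:136470036-136473170 in set 1), with SMC1A folds of 72.6 and 39.7 and STAG1 folds of 57.3 and 30.5. Over the STAG2 gene and its flanks 11 of 16 SMC1A peaks in set 1 and 12 of 20 in set 2 carried STAG1, and its promoter peak had SMC1A folds of 30.4 and 33.6. The SMC1A gene had no peak of either protein in set 1 and 2 lone SMC1A peaks, of folds 2.48 and 3.71, in set 2. CTCF had 3 shared SMC1A peaks in each set, the promoter one with folds of 16.7 and 15.8.

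Chromosomes differed in the same way in both sets. The share of SMC1A peaks with STAG1 went from 64.8% on chromosome 17 to 77.8% on X in set 1, and from 50.7% on chromosome 20 to 62.2% on chromosome 13 in set 2. Chromosomes 17, 19, 20 and 22 had the 4 lowest values in both sets. The Spearman correlation between the sets over 23 chromosomes was 0.95, over points that each pool the peaks of a single library per set. Chromosomes with a larger share of SMC1A at promoters had a lower share with STAG1 in set 1 (Spearman correlation -0.75 over 23 chromosomes).

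**Figure D5:**
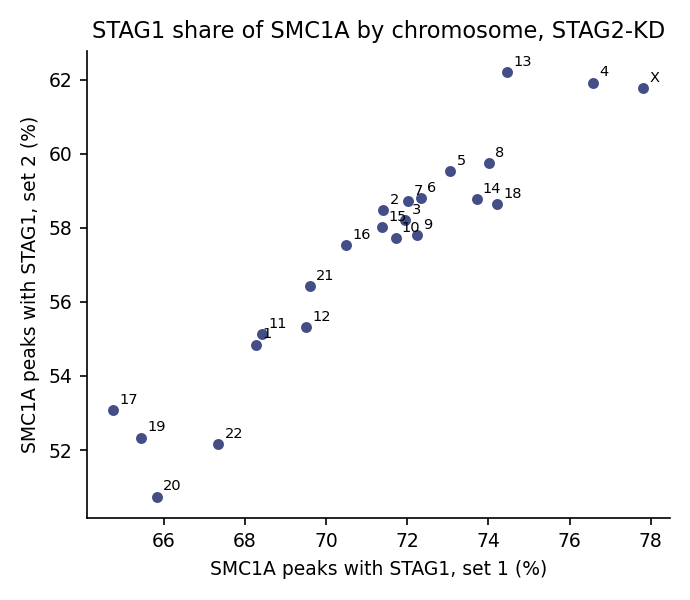
Share of STAG2-KD SMC1A peaks with STAG1 (%) by chromosome, set 1 (horizontal) against set 2 (vertical), 1 point per chromosome. Chromosomes 17, 19, 20 and 22 sit at the lower left and 4, 13 and X at the upper right, with ranges of 64.8% to 77.8% and 50.7% to 62.2%; neither axis starts at 0.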

How the data were processed

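ChIP-seq libraries of M14 cells were grouped by the labels' titles. Titles without a number were set 1 and those ending in 2 were set 2. The labels give each set its own extraction and size selection, so libraries were compared within a set. A common protocol does not show that the libraries of a set were prepared as 1 batch. Separate cultures are not stated, and the spread may be technical.

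Per the study's methods and the submitters' processing notes, the authors aligned reads to hg19 (Bowtie2; BWA with CASAVA 1.4 is noted for set 2) and called peaks per library with MACS2 against input. The deposited lists give a score, the fold enrichment at the summit (a ratio), and the −log10 p-value and −log10 q-value. Set 1 lists stop at a q-value of 0.01 and set 2 lists at a p-value of 0.01, with q-values of up to 0.489. These values were used only to rank, filter and describe peaks.

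Overlap, place (GENCODE v44 for GRCh37, by midpoint) and motifs (both strands, 201 bp at the summit, by name: CTCF core, AP-1, TEAD, SP/KLF, ETS, E-box, CACCTG and an interferon type, spelled where used) were computed with Python 3.11.15, numpy 2.4.6, pandas 2.3.3 and scipy 1.17.1. No peaks of a list overlapped, and 0 peaks ran past a chromosome end. Read levels assume a 2.7 Gb genome and fragments as long as the narrowest listed peak (120 bp in set 1 and 150 bp in set 2). Functions were tested on simulated data. Sites are not replicates and were not tested; shares were compared over libraries by exact permutation.

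Members and lists were chosen with earlier results of these data known. Named were list genes, 10 loci, the 5 sites per class with the lowest rank sum and the 10 genes with most lone SMC1A sites; others were chosen after their values were seen. Alternatives changed the overlap, threshold, list length, strength strata and promoter window. Some members of the gene lists are counted but not reported here by name.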

Additional observations from a re-analysis of the deposited data

Results flagged for a closer look

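Peaks outside chromosomes 1 to 22 and X entered no comparison. Their share of the list was higher in STAG2-KD than in WT for both antibodies in both sets: for SMC1A 3.44% against 3.02% in set 1 and 0.169% against 0.145% in set 2, and for STAG1 3.93% against 3.84% in set 1 and 0.234% against 0.186% in set 2. These rows lie outside the sequences compared, and their part in the results was not tested.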

How the results depend on the processing

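With the set number as a replicate block, the STAG2-KD minus WT difference was 4.81 percentage points for SMC1A with STAG1 and -2.44 for STAG1 with SMC1A, with exact sign-flip p of 0.5 and 1, where 0.5 is the smallest p possible, so no alternative could pass a threshold. Leaving out a set gave 1.10 to 8.51 for the first and -5.04 to 0.148 for the second, which turned its sign without set 1, as it did with lists of equal numbers (1.35). The promoter difference of SMC1A was -11.4 to 2.48 when a set was left out and turned to 1.96 when peaks within 1 kb counted as shared.

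The share of SMC1A with STAG1 (64.1%) was 74.0% with equal numbers, 74.4% at a q-value of 1e-05, 76.8% within 1 kb and 92.4% in the strongest 50% of SMC1A peaks. The share of STAG1 with SMC1A (81.4%) was 77.3% with equal numbers and 95.7% in the strongest 50% of STAG1 peaks. STAG1 sites without SMC1A in both sets numbered 8777 with equal numbers, against 5714.

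The CTCF difference of SMC1A peaks (60.3) was 59.1 with equal numbers, 63.6 with 50% overlap, 60.5 and 59.3 at q-values of 0.01 and 1e-05, 64.4 by summit, 54.3 within 1 kb, 38.3 within strength deciles and 36.2 over deciles with at least 20 peaks of each kind. That of STAG1 peaks (24.2) was 28.6 with 50% overlap, 29.5 by summit, and 13.6 and 0.495 within the same deciles. The STAG2 difference of SMC1A peaks (66.0) was 57.7 with equal numbers, 68.5 with 50% overlap, 60.3 at 1e-05, 67.9 by summit, 62.1 within 1 kb, and 43.9 and 41.4 within deciles. That of STAG1 peaks (51.3) was 43.2 with equal numbers, 46.7 at 1e-05, and 29.9956 and 24.3 within deciles. The promoter difference of STAG1 peaks (13.2) was 10.6 with 50% overlap and at 1e-05, 9.65 by summit, 17.5 within 1 kb, -2.57 within deciles, where it turned, and 17.1 over deciles with at least 20 of each.

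The strength difference was 36.1 within 1 kb for SMC1A. For STAG1 (35.7) it was 36.5 with equal numbers, 37.7 with 50% overlap, 36.1 and 38.1 at the 2 q-values, 38.0 by summit and 30.8 within 1 kb. With 2.5 kb promoters STAG1 was at 92.5% of cohesin and 88.4% of melanocyte promoters with SMC1A, and at a q-value of 0.01 at 85.5% of cohesin and 96.4% of MAPK ones. The cause of these changes was not tested. The minimum of 20 peaks and the judging of set 2 on the set 1 interval were chosen after seeing the data. The STAG2-KD minus WT difference of SMC1A with STAG1 kept its mean direction but was 1.59 with equal numbers and 1.03 at 1e-05, where set 2 alone turned to -2.92. In all, 103 values under alternatives kept the direction of the mean over both sets and moved by less than 1 SD between sets, or, for counts, by less than 1.5 times. Another 45 moved by more and 5 turned in sign. Part of the 103 was fixed in advance. With 2 sets, leaving one out always moves the mean by less than 1 SD, and the replicate block repeats the main value. A list records where signal passed a threshold, so that at these depths a peak alone means that the other protein was not detected, not that it was absent.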

Other observations

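GGGCGG, the GC box bound by SP and KLF factors, lay within 100 bp of the summit at 44.3% of the promoter SMC1A peaks with STAG1 and without CTCF in set 1 and 27.9% in set 2, and at 36.4% and 19.2% of those without STAG1 and CTCF. CCGGAAG, bound by ETS factors, lay at 8.38% and 7.01% against 5.66% and 2.83%. Both motifs were thus more frequent at the promoter peaks with STAG1 and without CTCF in both sets. SMC1A peaks with STAG1 were stronger, and these shares were not compared within strength. At promoters with CTCF the GC box had no common direction, with 39.8% against 48.3% in set 1 and 39.4% against 34.9% in set 2.

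GGAATG, the motif of TEAD factors, lay at 16.5% and 15.5% of the SMC1A peaks with STAG1 that had neither CTCF nor a promoter and at 15.6% and 13.8% of such peaks without STAG1. The interferon-type motif GAAANNGAAA lay at 2.801% and 3.14% of the shared SMC1A peaks and at 2.61% and 3.36% of the lone ones, against 3.01% to 3.33% of the windows 5 kb away from them. The E-box CACGTG lay at 3.18% and 3.02% of the shared SMC1A peaks and at 3.70% and 2.87% of the lone ones, with no common direction.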
